A study of Rattus norvegicus with 8 samples.

Results

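The let-7 family was read in all 8 of these rat kidneys. Of the 620 known rat miRNAs in the counts, 17 belonged to it, chosen by name as every entry that begins with let-7 together with miR-98 on either arm of its hairpin. They comprised 8 main arms (let-7a, let-7b, let-7c, let-7d, let-7e, let-7f, let-7i and miR-98) and 9 opposite arms, which carry an asterisk. The main arms held 4791610 reads, or 4.09% of the 117232063 reads on known miRNAs, and the opposite arms held 14540 reads. let-7g was not among the names used here, so that the shares and the order below have no entry for it.

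Small RNA was sequenced from the kidneys of 8 male Big Blue transgenic rats on the Fisher 344 background, so that controls and treated animals alike carry the mutation reporter transgene. The AA group of 4 rats received aristolochic acid, a plant nephrotoxin and carcinogen, as its sodium salt at 10 mg/kg body weight by gavage 5 times a week for 12 weeks, starting at 6 weeks of age. The control group (CTL) of 4 rats received 0.9% sodium chloride on that schedule. The libraries are called here CTL1 to CTL4 and AA1 to AA4 after their titles, with 1 rat per library, and held between 13412373 and 15616670 reads on known miRNAs.

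Drosha and Dicer cut let-7 miRNAs out of hairpin precursors. For this family it is mainly the 5′ arm that accumulates, and few copies of the opposite arm remain. LIN28 binds the precursors and blocks their processing in embryonic cells, and mature let-7 accumulates as tissues differentiate. The mature miRNAs repress mRNAs of growth regulators such as RAS, MYC and HMGA2, and they recognise these mRNAs mainly through the seed, bases 2 to 8 from the 5′ end.

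All 8 main arms were matched in RefSeq (rat assembly GRCr8), and all 8 are 22 nt long with 1 common seed. They are shown because the members can be told apart by a few bases outside the seed. Capitals mark the seed.
rno-let-7a: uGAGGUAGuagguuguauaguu
rno-let-7f: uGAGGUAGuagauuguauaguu
rno-let-7c: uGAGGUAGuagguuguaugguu
rno-let-7b: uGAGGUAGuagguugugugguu
rno-let-7e: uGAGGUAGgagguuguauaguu
rno-let-7d: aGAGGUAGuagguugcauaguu
rno-let-7i: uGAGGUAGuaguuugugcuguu
rno-miR-98: uGAGGUAGuaaguuguauuguu
With the base of let-7a first and positions counted from 1 at the 5′ end, let-7f differed from let-7a by G12A, let-7c by A19G and let-7e by U9G. let-7b carried A17G and A19G, let-7d U1A and U16C, and miR-98 G11A and A19U. let-7i was the most distant from let-7a, with the 4 substitutions G12U, A17G, U18C and A19U. Among the 28 pairs of main arms, 4 differed by 1 base, so that reads with a sequencing error or an edited base could be counted on a neighbour, and how such reads were assigned is not given in the sources used here. Of 455 miRNAs in the counts with a RefSeq sequence, 0 outside the family carried the let-7 seed. Names without an arm were looked up first as the 5′ arm, and names with an asterisk as the 3′ arm. For hairpins whose main arm is the 3′ arm, this check could therefore take the sequence of the other arm.

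let-7f, let-7a and let-7c each come from 2 hairpins in RefSeq, and their main-arm reads cannot be divided between them. let-7f is encoded on chr17:16320508-16320529 (plus strand) near let-7a-1 and let-7d, and on chrX:24460052-24460073 (plus strand) near miR-98. let-7e lies on chr1:67350243-67350264 (plus strand) between miR-99b and miR-125a, and let-7i on chr7:60527935-60527956 (minus strand) with no other let-7 gene beside it. All coordinates are of GRCr8.

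The opposite arms are less alike. RefSeq held 8 of the 9, with 6 different seeds, and let-7c-1* was not matched. The 7 tested opposite arms are shown, since the arm values below refer to them, with bases 2 to 8 in capitals.
rno-let-7d*: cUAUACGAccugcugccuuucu
rno-let-7b*: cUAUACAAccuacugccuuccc
rno-let-7i*: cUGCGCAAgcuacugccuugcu
rno-miR-98*: cUAUACAAcuuacuacuuucc
rno-let-7f-1*: cUAUACAAucuauugccuucc
rno-let-7f-2*: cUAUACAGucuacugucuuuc
rno-let-7e*: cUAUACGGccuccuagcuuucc

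A few libraries stood apart before any comparison was made. In the sample labels 1 field names the tissue as liver, while the other labels and the study's methods name the kidney. miR-30a, abundant in kidney tubules, made up 10.7% to 13.9% of the reads of every library. Of the 4 kidney tubule markers counted, 2 were called lower in the AA group, miR-194 (log2 fold change -0.73, adjusted p = 0.0499) and miR-204 (-0.80, adjusted p = 0.0337), while miR-192 (-0.79, adjusted p = 0.199) and miR-30a (-0.17, adjusted p = 0.513, all from edgeR) were not called. The liver miRNA miR-122 made up 0.0634% in AA2 and 0.00464% in CTL1 and at most 0.000612% in the other libraries. CTL4 and AA4 were apart in the let-7 opposite arms, as described with them. Leukocyte markers (miR-142-3p, miR-142-5p, miR-223 and miR-150, 4 of the 5 listed, with miR-142-3p the most abundant) summed to 1264, 1089, 1164 and 914 CPM (counts per 1000000 reads after TMM scaling between libraries) in CTL1 to CTL4 and to 2435, 2929.7, 2057 and 4121 CPM in AA1 to AA4. The fibroblast and injury markers (miR-21, miR-214 and both arms of miR-199a, 4 of the 4 listed, with miR-21 the most abundant) summed to 39271, 31934, 31722 and 28624 CPM in the control libraries and to 165319, 101879.8, 71479 and 178907 CPM in the AA libraries. Every AA library was above every control library for both sums. In each of these lists 2 members were called higher in the AA group and none was at 0 reads in all libraries. Over all tested miRNAs 10.4% were called higher and 5.99% lower. The part of these markers in the values below was not tested.

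let-7f was the dominant member. It ranked 8 by reads among the 620 miRNAs and took 60.7% of the main-arm reads. The order of mean levels over the 8 libraries was let-7f at 24627 CPM, let-7i at 4854, let-7c at 4323, let-7a at 3247, let-7b at 1766, let-7e at 752, let-7d at 712 and miR-98 at 230.1 CPM. These levels were not divided by length, since the 8 miRNAs have 1 length and a read covers a whole miRNA. Efficiency of adapter ligation differs between sequences and was not measured here, so that levels of different miRNAs are approximate. let-7f exceeded let-7i by 4.65 to 5.72 times in every library. The order of each neighbouring pair held in all 8 libraries except for let-7e and let-7d, whose ratio ran from 0.837 to 1.27 and whose order held in 4 of the 8. let-7i and let-7c were also close, with a lowest ratio of 1.00 and a highest of 1.34. For scale, the most abundant miRNA of the counts, miR-378, had a mean of 289295 ± 44868 CPM in controls and 172574 ± 22828 CPM after AA (SD, n = 4 each).

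**Figure D1:**
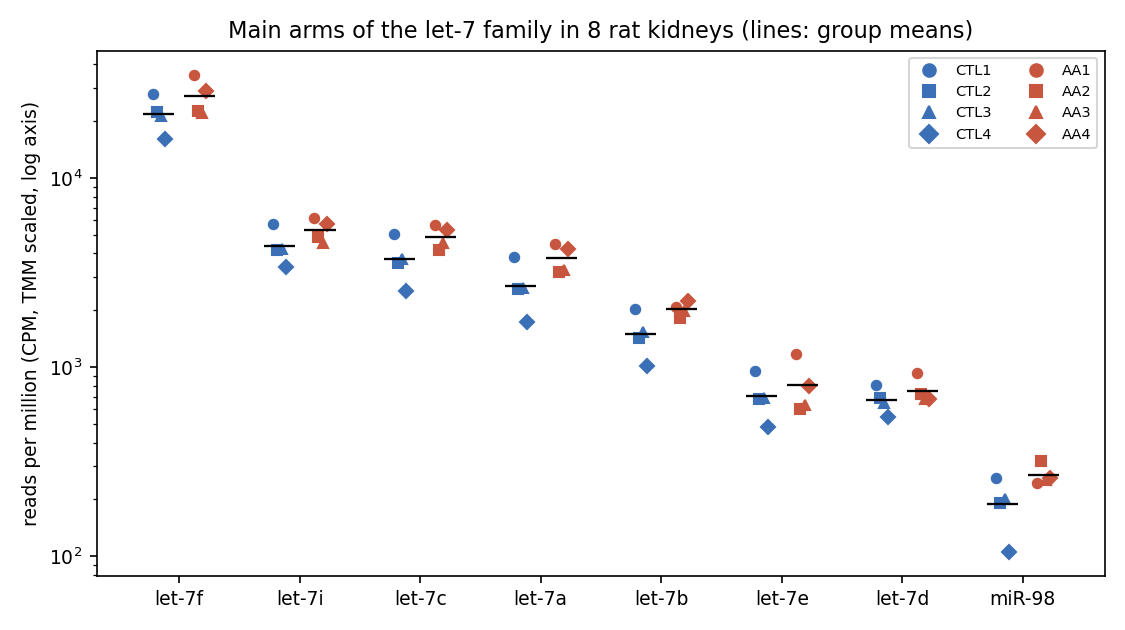
Levels of the 8 main arms (CPM after TMM scaling, log axis) in the 4 control and 4 AA libraries, with 1 symbol per library and a line at each group mean. CTL4 was the lowest library in all 8 arms, and the groups overlapped in every arm.

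The first comparison asked whether AA treatment changed the levels of the family. None of the 15 members tested differed between the AA and control groups at an adjusted p-value under 0.05 (quasi-likelihood test of edgeR, Benjamini-Hochberg adjustment over 367 miRNAs), while 16.3% of all tested miRNAs did, with 10.4% higher and 5.99% lower in the AA group. The group means of all 8 main arms were above the control means, by log2 fold changes between 0.17 and 0.51 with standard errors of 0.18 to 0.26. Their median was 0.36, against 0.06 over all tested miRNAs. At an unadjusted p-value under 0.05 the count was 0 of 8 main arms and 0 of 7 opposite arms, against 30.0% of all tested miRNAs, and the CPM of the groups failed to overlap for 0 of the 15 members, against 24.3% of all. The DESeq2 Wald test likewise called 0 of each. A fit with the number in the titles as a replicate block called 1 of the 15 members, let-7i*, against 78 of all 367. The numbers were not taken to pair the rats, for the reasons given at the end. In bulk tissue a change in the number of cells of a type and a change in RNA per cell cannot be told apart.

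let-7f was read at 27957, 22369.7, 21225 and 16042 CPM in CTL1 to CTL4 and at 35310.3, 22772, 22251 and 29091 CPM in AA1 to AA4. The ranges overlapped, since AA2 and AA3 lay beside CTL2, while AA1 and AA4 were above every control library. The means were 21898 ± 4888 and 27356 ± 6147 CPM (SD, n = 4 each), and the log2 fold change of 0.32 had a 95% interval of -0.15 to 0.80 and an adjusted p of 0.330 from edgeR. The interval covers no change and also a rise by 0.80 on the log2 scale.

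let-7a was read at 3852, 2607, 2612 and 1729 CPM in CTL1 to CTL4 and at 4493, 3198, 3262 and 4222 CPM in AA1 to AA4. CTL1 alone among the control libraries reached the range of the AA libraries. Its log2 fold change was 0.49 (standard error 0.24, 95% interval -0.03 to 1.01, adjusted p = 0.188 from edgeR). let-7b, which differs by 1 base from let-7c, was at 2045, 1423, 1538 and 1019.6 CPM in the control libraries and 2078, 1819, 1973 and 2235 CPM in the AA libraries. Again CTL1 alone reached the AA range, and the log2 fold change of 0.43 had a 95% interval of -0.02 to 0.88 (adjusted p = 0.186 from edgeR), the lowest adjusted p among the main arms. In let-7c and let-7i, likewise, CTL1 was the only control library at or above the lowest AA library, and their log2 fold changes were 0.40 (adjusted p = 0.229) and 0.29 (adjusted p = 0.318, both from edgeR).

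miR-98, the least abundant main arm, was read at 259.7, 192, 202 and 106 CPM in CTL1 to CTL4 and at 246, 321, 255 and 260.2 CPM in AA1 to AA4. It had the widest range over the libraries of the 8 main arms, with the highest 3.04 times the lowest. The log2 fold change was 0.51 (standard error 0.25, 95% interval -0.05 to 1.07, adjusted p = 0.202 from edgeR). miR-98 shares its place on chromosome X with let-7f-2, but AA2 was its highest library whereas AA1 was the highest for let-7f.

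let-7e and let-7d had the smallest log2 fold changes among the main arms. let-7e was at 701 ± 196 CPM in controls and 802 ± 266 CPM after AA, and let-7d at 671 ± 105 and 753 ± 121 CPM (SD, n = 4 each). Their log2 fold changes were 0.19 (95% interval -0.39 to 0.78) and 0.17 (95% interval -0.22 to 0.56), with adjusted p-values of 0.642 and 0.531 from edgeR. Without AA1, the highest library for both, the values were -0.16 for let-7e and -0.056 for let-7d.

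**Figure D2:**
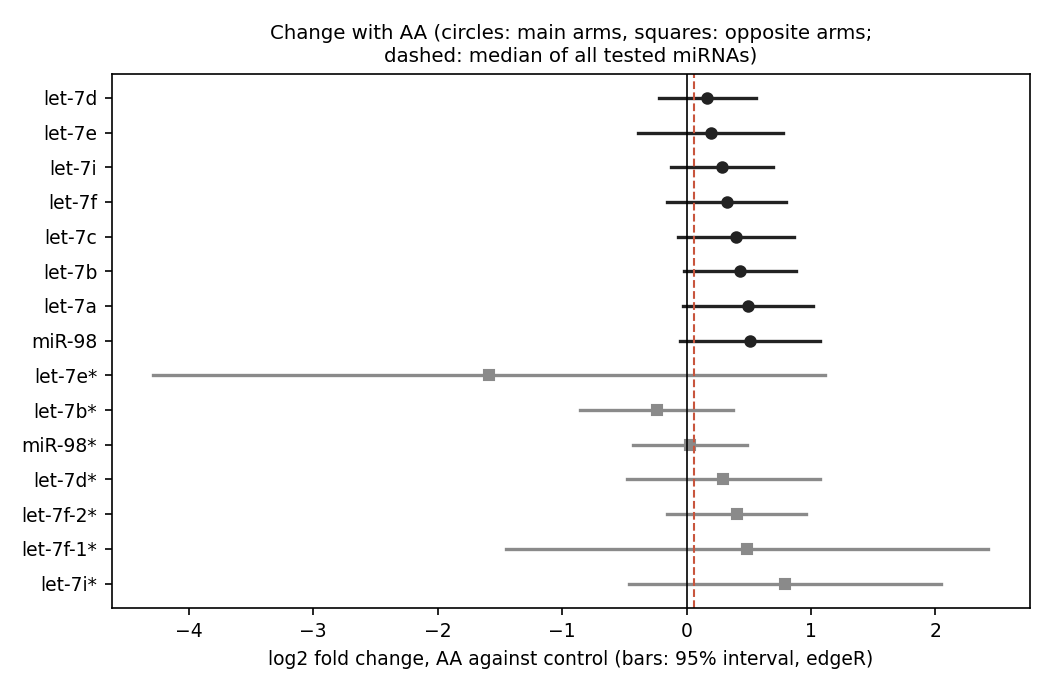
Log2 fold change of AA against control for the 8 main arms (circles) and the 7 tested opposite arms (squares), with 95% intervals from edgeR as bars. The main arms lie between 0.17 and 0.51, and every interval includes 0. The dashed line is the median of all tested miRNAs, 0.06.

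All 8 main arms lay below their group mean in CTL4 and in AA3 and above it in CTL1, while in CTL2, CTL3, AA1, AA2 and AA4 some members were above and others below their group means. CTL4 was the lowest of the 8 libraries in all 8 main arms, and AA1 was the highest in 6 of them, with AA4 the highest for let-7b and AA2 for miR-98. Relative to its group mean, CTL4 was lower by a median of -0.50 on the log2 CPM scale over the 8 main arms, and CTL1 was higher by 0.48. The deviations ran from -0.77 to -0.28 in CTL4, from 0.27 to 0.57 in CTL1, from -0.28 to -0.034 in AA3 and from -0.13 to 0.61 in AA1. In the same libraries the median over all 367 tested miRNAs deviated by -0.04 and 0.09. As a share of the reads, the main arms made up 4.08%, 3.31%, 3.62% and 2.31% in CTL1 to CTL4 and 5.41%, 4.67%, 4.01% and 5.22% in AA1 to AA4, with 95% Wilson intervals no wider than 0.0121 percentage points to either side. The group means were 3.33% ± 0.749 and 4.83% ± 0.627 (SD, n = 4 each), and the groups overlapped by CTL1 and AA3 only. With the 3 most abundant miRNAs (miR-378, miR-143 and miR-30a) left out of the total, the shares were 7.71% ± 1.57 and 9.08% ± 0.859 (SD, n = 4 each). After TMM scaling the difference was smaller against its spread, at 35769 ± 8509 CPM in controls and 45252 ± 8609.6 CPM after AA (SD, n = 4 each).

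The size of the group difference moved with single rats, in both directions. The median log2 fold change of the main arms, 0.36 with all libraries, was 0.52 without CTL1 and 0.42 without AA3, and it was 0.22 without CTL4, 0.16 without AA1, 0.23 without AA4 and 0.14 without both CTL4 and AA4. Set against the median of all tested miRNAs in the same fit, the excess of the main arms was 0.30 with all libraries, 0.43 without CTL1, 0.38 without AA3, 0.14 without CTL4, 0.21 without AA1, 0.31 without AA4 and 0.13 without both. Leaving out AA4 alone thus lowered the median of all tested miRNAs, to -0.086, along with that of the main arms. Over the fits without 1 library, the log2 fold change ran from 0.067 (without AA1) to 0.46 (without CTL1) for let-7f, from 0.10 to 0.44 for let-7i, from 0.22 to 0.58 for let-7c and from 0.30 to 0.71 for let-7a, with the lowest and the highest values from those fits. For let-7b it ran from 0.28 (without CTL4) to 0.61 (without CTL1) and for miR-98 from 0.31 (without CTL4) to 0.70 (without CTL1). No member tested was called in any of these fits. let-7e* did not pass the read filter without CTL1, CTL2, CTL3 or AA1 and was not tested there.

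The proportions within the family varied to different extents. let-7f made up between 58.3% and 63.0% of the main-arm reads in every library, let-7i between 11.0% and 13.1% and let-7c between 9.81% and 11.9%. The shares of the least abundant members spread more widely for their size, from 1.41% to 2.12% for let-7d and from 0.409% to 0.835% for miR-98. The share of let-7a was 8.26%, 7.30%, 7.49% and 6.69% in CTL1 to CTL4 and 8.01%, 8.31%, 8.55% and 8.74% in AA1 to AA4. All AA libraries but AA1 were above every control library for let-7a, and the means were 7.43% ± 0.648 and 8.40% ± 0.313 (SD, n = 4 each). The shares of let-7e were 1.95% ± 0.0849 and 1.74% ± 0.246 (SD, n = 4 each, control and AA), with AA1 the highest library and AA2, AA3 and AA4 below every control library. For 0 of the 8 members did the shares of the groups separate completely. Without AA1 they separated for 3, let-7a and let-7b (higher in AA) and let-7e (lower in AA), and without CTL1 for let-7a. No count of this kind over other miRNAs is given here, so that whether these counts are unusual cannot be said. The shares within the family do not depend on scaling between libraries.

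The second comparison set the main arms against their opposite arms, which come from the same hairpins. The 5′ arm was the main one in every pair and library, but by very different factors. let-7f was read a median of 4689 times as often as let-7f-2* and 1521 times as often as let-7f-1*, let-7i 1229 times as often as let-7i*, and let-7b 958 times as often as let-7b*. miR-98 and let-7d stood at the other end, with medians of 17.5 for miR-98 over miR-98* and 10.8 for let-7d over let-7d*. let-7d* alone took 63.1% of the 14540 opposite-arm reads of the family. Since let-7f reads come from both of its hairpins, its ratios overstate the imbalance of each.

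Between the AA and control groups, 0 of the 7 let-7 arm pairs tested changed in ratio (limma on log2 ratios, Benjamini-Hochberg adjustment over 137 pairs of arms), while 3.65% of all pairs did. At an unadjusted p-value under 0.05, 1 of the 7 let-7 pairs passed, let-7e over let-7e*, against 17.5% of all pairs. With the number in the titles as a replicate block that 1 pair was called, against 9 of all 137. let-7d over let-7d* was at a log2 ratio of 3.36 ± 0.77 in controls and 3.21 ± 0.69 after AA (SD, n = 4 each), a difference of -0.15 (standard error 0.43, adjusted p = 0.891 from limma) that turned to 0.15 without AA4, 0.012 without CTL1 and 0.019 without CTL2 and was -0.52 without CTL4. For let-7i over let-7i* the difference was -0.60 (standard error 0.64) and for miR-98 over miR-98* it was 0.56 (standard error 0.34), with adjusted p-values of 0.670 and 0.448 from limma. The let-7i difference ran from -1.19 without CTL4 to -0.12 without CTL1 (-0.24 without AA4), and the miR-98 difference was 0.21 without CTL4. For let-7b over let-7b* the difference was 0.69 (standard error 0.35, adjusted p = 0.322 from limma), and 0.34 without the libraries numbered 4.

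Single libraries stood apart in the arm ratios of let-7d and let-7i. let-7d was 14.3, 14.5, 11.5 and 4.69 times let-7d* in CTL1 to CTL4 and 16.2, 10.0, 9.07 and 5.02 times in AA1 to AA4. CTL4 and AA4 were the lowest of their groups. let-7i was 3711, 1862, 1247 and 399 times let-7i* in the control libraries and 1466, 1211, 855 and 427 times in the AA libraries, again with CTL4 and AA4 lowest. In CTL4 the ratio was below all other control libraries in 6 of the 7 pairs, and in AA4 below all other AA libraries in 4 of the 7. Over all 137 pairs of arms these shares were 42.3% for CTL4 and 44.5% for AA4.

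In CTL4 both arms departed from the group. let-7d* was at 56.2, 47.2, 56.5 and 117 CPM in CTL1 to CTL4 and at 57.4, 71.7, 74.9 and 136 CPM in AA1 to AA4. let-7i* had 20, 30, 54 and 104 reads in the control libraries and 54, 74, 77 and 225 reads in the AA libraries. Its log2 fold change was 0.79 (standard error 0.57, 95% interval -0.46 to 2.05, adjusted p = 0.352 from edgeR), but 0.061 without AA4 and 1.50 without CTL4 (adjusted p = 0.0885). With the number in the titles as a replicate block it was 0.88 (adjusted p = 0.0335 from edgeR), though the numbers were not taken to pair the rats. For both opposite arms the libraries numbered 4 were the highest of their groups, whereas CTL4 was the lowest for the corresponding main arms. miR-98* was nearly level, between 10.1 and 15.6 CPM in all libraries. Over the family, the opposite arms had 2.03, 2.42, 2.44 and 6.88 reads per 1000 main-arm reads in CTL1 to CTL4 and 1.84, 2.96, 2.95 and 4.27 in AA1 to AA4.

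**Figure D3:**
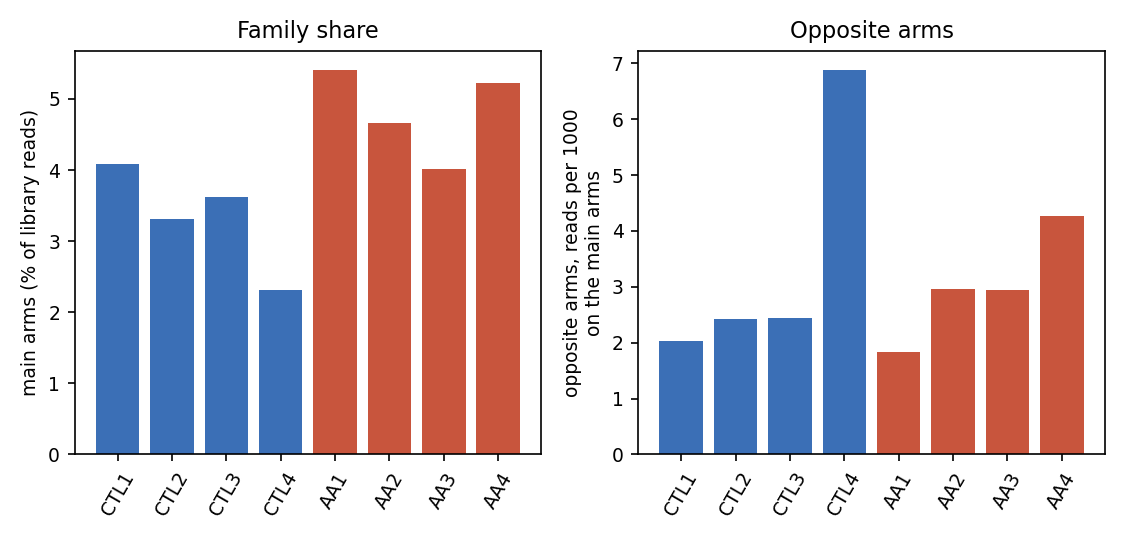
Left, reads on the 8 main arms as a percent of each library. Right, reads on the 9 opposite arms per 1000 main-arm reads of the same library. Control libraries are blue and AA libraries red, with 1 bar per library. CTL4 had the lowest main-arm share (2.31%) and the highest opposite-arm value (6.88).

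In 2 opposite arms the reads were nearly absent from single libraries. let-7f-1* had 186, 194, 1 and 342 reads in CTL1 to CTL4 and 188, 311, 218 and 540 reads in AA1 to AA4, so that CTL3 held 1 read where every other library held at least 186. let-7e* had 58, 76, 83 and 4 reads in CTL1 to CTL4 and 67, 1, 1 and 1 reads in AA1 to AA4. It was therefore present in CTL1, CTL2, CTL3 and AA1 and close to 0 in the other 4 libraries. Their main arms showed no such gaps, with let-7e between 483 and 1181 CPM. Of the 308 miRNAs with a median of at least 20 reads, 3 fell to 5% of their median or less in any library, and 2 of these 3 were let-7f-1* and let-7e*. The third was miR-449a. Which reads were counted on these names cannot be seen from the counts.

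These gaps set the widest intervals in the family. The log2 fold change of let-7e* was -1.59 (standard error 1.22, 95% interval -4.28 to 1.11, adjusted p = 0.390 from edgeR), and that of let-7f-1* was 0.49 (standard error 0.87, adjusted p = 0.718) but -0.092 without CTL3. The ratio of let-7e to let-7e* was 219, 120.1, 133 and 1318 in CTL1 to CTL4 and 226, 7397, 6153 and 8909.7 in AA1 to AA4, a log2 difference of 3.57 (standard error 1.20, adjusted p = 0.174 from limma). With 5 reads added to each arm in place of 0.5 the difference was 2.36 (adjusted p = 0.157). Neither difference passed the threshold of its test. With the number in the titles as a replicate block the ratio difference of 3.57 did pass (adjusted p = 0.0417 from limma).

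The remaining opposite arms held few reads. let-7f-2* lay between 50 and 132 reads per library and let-7b* between 19 and 43, and their log2 fold changes were 0.40 (adjusted p = 0.302) and -0.24 (adjusted p = 0.576, both from edgeR). Without AA4 the value of let-7f-2* was 0.084, and that of let-7b* was -0.41 without AA2 and -0.38 without CTL2. let-7c-1* and let-7a-2* did not pass the read filter, with 83 and 12 reads over all libraries. let-7a-2* had 0 reads in AA3, which allows up to 0.217 CPM without TMM scaling (3 counts of the total, counting error only).

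**Figure D4:**
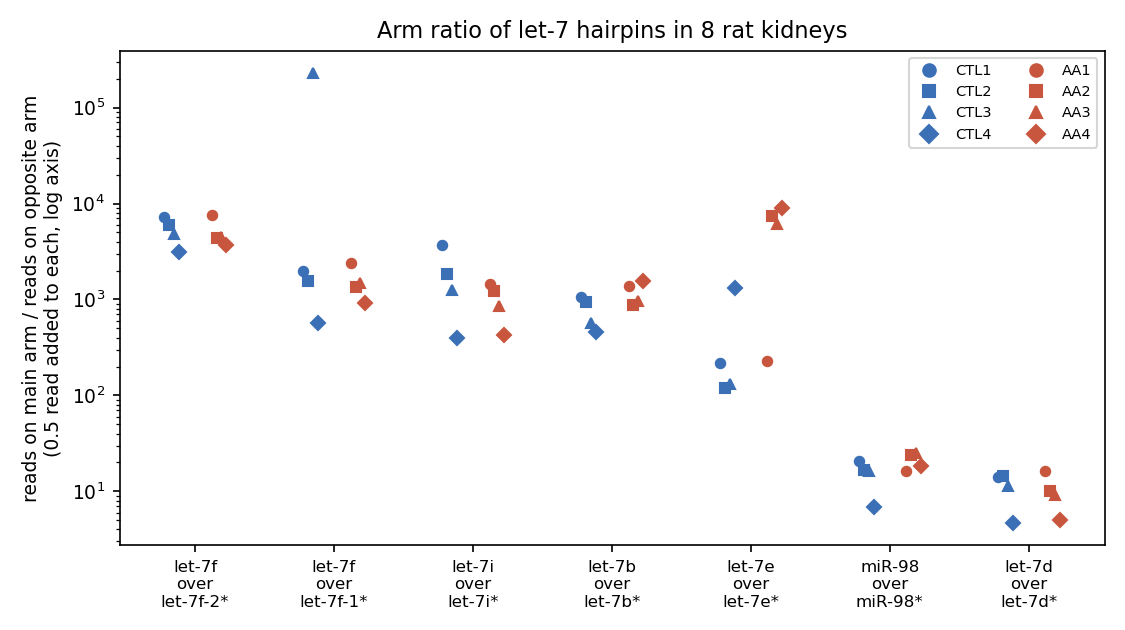
Reads on the main arm divided by reads on the opposite arm (0.5 read added to each, log axis) for the 7 tested let-7 pairs, with 1 symbol per library. CTL4 and AA4 are the lowest of their groups for let-7d and let-7i. The high points are the libraries in which let-7f-1* (CTL3) or let-7e* (CTL4, AA2, AA3 and AA4) was nearly absent.

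Reads were also counted on miRNAs annotated on the strand opposite to let-7 genes. miR-3596a is annotated on the minus strand at the let-7a-2 gene, and its 22 nt are the exact reverse complement of let-7a. Since let-7a comes from 2 hairpins, the sequence alone does not tie these reads to let-7a-2. After its 5′ aa, miR-3596a runs like the start of let-7b*. Whether reads of opposite arms were counted on this name was not tested.
rno-miR-3596a: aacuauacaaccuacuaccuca
It had 217, 211, 301 and 613 reads in CTL1 to CTL4 and 198, 396, 296 and 844 reads in AA1 to AA4. CTL4 and AA4 were the highest of their groups, as for let-7d*, although CTL4 was the lowest library for let-7a itself. Per 1000 reads of let-7a, miR-3596a had 28.9 reads in CTL4 and 11.8 in AA4 and between 3.41 and 7.15 in the other 6 libraries. The log2 fold change between the groups was 0.10 (standard error 0.47, adjusted p = 0.900 from edgeR). The other antisense miRNAs of the family, miR-3596b, miR-3596c, miR-3596c* and miR-3596d, had at most 10 reads in any library.

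Genes of let-7a-2, let-7c-1 and let-7e lie beside genes of the miR-99, miR-100 and miR-125 families, which hold 11 of the miRNAs counted. Of the 10 tested, 0 were called higher and 1 was called lower in the AA group, against 10.4% and 5.99% of all tested miRNAs. The one called was miR-125b*, an opposite arm, at 39.1, 44.0, 34.2 and 61.2 CPM in CTL1 to CTL4 and 27.6, 21.8, 28.1 and 22.5 CPM in AA1 to AA4. It fell by 0.84 on the log2 scale (standard error 0.23, adjusted p = 0.0311 from edgeR), and the groups did not overlap. The median log2 fold change of the 10 was -0.19, against 0.36 for the let-7 main arms, a contrast of descriptions that was not tested.

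let-7e and its neighbour miR-99b, read from adjacent genes of chromosome 1, did not keep a fixed proportion. let-7e had 109, 104, 96.6 and 76.1 reads per 1000 reads of miR-99b in CTL1 to CTL4 and 166, 105, 84.7 and 147 in AA1 to AA4. AA1 and AA4 were above all other libraries. The log2 fold changes were 0.19 for let-7e, -0.16 for miR-99b (adjusted p = 0.538) and 0.00 for miR-125a-5p (adjusted p = 0.998, all from edgeR).

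Outside the family, the levels most like the summed main arms over the 8 libraries were those of miR-362, miR-872, miR-27b*, miR-196b and miR-301a*. In that order their mean levels were 15.5, 158, 6.56, 341 and 0.856 CPM, so that the likeness of miR-301a* rests on few reads. Likeness was measured as the root mean square difference between log2 CPM profiles, each centred on its own mean, and was 0.11, 0.13, 0.16, 0.16 and 0.17 for the 5, against a median of 0.51 over the 352 tested miRNAs outside the family. Of the members themselves, let-7f was at 0.04, let-7i at 0.07, let-7c at 0.08, let-7a at 0.12, let-7b at 0.15, let-7e at 0.15, let-7d at 0.16 and miR-98 at 0.30. The summed profile contains the members, and 40 miRNAs outside the family were closer to it than miR-98. The log2 fold changes of the 5 lay between 0.26 and 0.46, and none was called (adjusted p between 0.206 and 0.501 from edgeR).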

How the data were processed

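The authors sequenced small RNA libraries (Illumina Small RNA v1.5 kit, Genome Analyzer II), selected fragments of 22 to 30 nt, and mapped reads with Bowtie in miRanalyzer to known rat miRNAs of miRBase version 17. The deposited counts are whole reads per miRNA and library, without normalization. The paper states a smaller total of reads for its samples than these counts hold. The sources used here do not explain the difference. The labels also name DESeq. The treatment of reads that match several miRNAs is not given in the sources used here. Samples were grouped by their titles.

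A miRNA was tested where 4 or more of the 8 libraries held 10 or more reads (367 miRNAs). The 2 groups were compared by the two-sided quasi-likelihood test of edgeR 4.0.16 (glmQLFTest after glmQLFit, R 4.3.3) with TMM scaling and Benjamini-Hochberg adjustment, at a threshold of 0.05. Standard errors were taken as the log2 fold change divided by the square root of F. Arms were paired by name, and log2 ratios with 0.5 read added to each arm were compared with limma 3.58.1 (trend) over 137 pairs with both arms past the filter. Both steps were tested on simulated data with changes well above those of the let-7 main arms. Whether changes as small as those would be found was not examined. DESeq2 1.42.0, other scalings and filters, and fits without single libraries were run as alternatives. The 95% Wilson intervals of shares take in counting error alone, since PCR copies are not independent molecules. Depth was 13412373 to 15616670 reads per library. No library was counted as a repeat of another (lowest within-group chi-square per degree of freedom, 296). Sequences are from RefSeq (GRCr8), matched for 16 of the 17 members.

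All members are named by the rule, as are the neighbouring miR-99, miR-100 and miR-125 families and the 5 miRNAs nearest in profile. The choice of miR-449a and of the antisense miR-3596 miRNAs was made with their values in view. The members and lists were chosen with earlier results of these data known. Of the marker lists, miR-10a, miR-155 and miR-486 were not among the names used here. Called members were 2 lower of 4 for kidney tubule (miR-192, miR-194, miR-204 and miR-30a), and 0 for liver (miR-122 and miR-122*), red blood cell (miR-144 and miR-451), smooth muscle (miR-143 and miR-145) and endothelium (miR-126 and miR-126*).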

Additional observations from a re-analysis of the deposited data

Results flagged for a closer look

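Of 46 sets of 4 libraries examined over the levels, the arm ratios and the family share, 6 held a value far from the other 3. About 2.3 would do so by chance if the sets were independent and their values normal. The sets share libraries, and the let-7e* level and the let-7e ratio in AA1 rest on the same reads. Whether 6 is more than chance would give therefore cannot be said. let-7d was at 932 CPM in AA1 against 679 to 719 in the other AA libraries. let-7i* was at 13.3 CPM in AA4 against 4.01 to 5.30, and let-7f-1* at 32.0 CPM in AA4 against 14.5 to 16.9. let-7d* was at 117 CPM in CTL4 against 47.2 to 56.5 in the other control libraries. let-7e* was at 5.18 CPM in AA1 against 0.0543 to 0.0688 in AA2 to AA4, and the log2 ratio of let-7e to let-7e* was 7.82 in AA1 against 12.6 to 13.1.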

How the results depend on the processing

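No main arm was called in any of the 17 alternative fits, and all 8 kept a log2 fold change above 0 except let-7d and let-7e without AA1. Total counts in place of TMM moved the median log2 fold change of all miRNAs from 0.06 to 0.27 and that of the main arms from 0.36 to 0.56, a difference of 0.28 against 0.30. The lowest adjusted p of a main arm was then 0.0535, and 54 miRNAs in place of 38 were called higher and 14 in place of 22 lower, so that the share of higher calls was 79.4% in place of 63.3%. With total counts the log2 fold changes of all 8 main arms were higher, from 0.37 (let-7d) to 0.73 (miR-98), and those of let-7d*, let-7b* and miR-98* were 0.52, -0.035 and 0.23. Those of let-7f-1* and let-7f-2* were 0.75 and 0.61. Without the 3 most abundant miRNAs all 8 main arms were lower than in the main fit, with a median of 0.29. let-7d was then at 0.087, let-7e at 0.13 and let-7d* at 0.16. miR-98*, at 0.025 with TMM, was at -0.033 with RLE size factors, -0.032 with DESeq2 and -0.074 without the 3 most abundant miRNAs.

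Leaving out 1 library at a time gave 35 to 51 calls over all miRNAs, with 24 to 33 higher and 10 to 21 lower (35 in all without CTL2 and 37 without CTL1, 10 lower without either, and 24 higher without CTL3). The log2 fold change then lay between -0.056 and 0.26 for let-7d, -0.16 and 0.38 for let-7e, -0.18 and 0.13 for miR-98*, -0.15 and 0.67 for let-7d*, -0.092 and 1.06 for let-7f-1*, 0.061 and 1.50 for let-7i*, 0.084 and 0.50 for let-7f-2*, and -0.41 and -0.20 for let-7b*. The change in log2 arm ratio lay between -1.19 and -0.12 for let-7i over let-7i*, 0.21 and 0.75 for miR-98 over miR-98*, -0.52 and 0.15 for let-7d over let-7d*, -0.29 and 0.12 for let-7f over let-7f-2*, and -2.63 and 0.25 for let-7f over let-7f-1*. For let-7b over let-7b* it lay between 0.48 and 0.89. let-7e* and its ratio were tested only in the fits without CTL4, AA2, AA3 or AA4. There the log2 fold change of let-7e* lay between -1.99 and -1.19. The change in let-7e over let-7e* lay between 3.06 and 4.35 and was not called (adjusted p = 0.0792 from limma without CTL4). The arm pairs called numbered 1 (without CTL2) to 4 (without AA1) in place of 5, and 2 without each of CTL1, CTL3, CTL4, AA2 and AA3. They numbered 3 with no read filter and 0 by the exact permutation test, whose smallest p with 4 against 4 is 0.0286, and 0 to 3 members separated in their share of the family. The difference in family share was between 1.16 and 1.77 percentage points. The cause of these changes was not tested.

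CTL and AA titles share the numbers 1 to 4. In fits with this number as a replicate block, 78 miRNAs and 9 arm pairs were called, and of the let-7 members 1, let-7i* (log2 fold change 0.88, adjusted p = 0.0335 from edgeR), and 1 let-7 arm pair, let-7e over let-7e* (3.57, adjusted p = 0.0417 from limma). Deviations of same-numbered libraries correlated by 0.05, 0.20, 0.14 and 0.35 across 367 miRNAs, which are not independent, and the libraries numbered 2, 3 and 4 each correlated best with their own number. CTL1 correlated best with AA2 (0.12) and AA1 with CTL2 (0.14). With 1 pair at 0.05 and no label that ties the numbers to a shared litter or day, the numbers were not taken to pair the rats.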
